A study of Homo sapiens with 4 samples.

Results

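The 10 genes described here encode intermediate filament proteins and were taken as a set by name: the neurofilament subunits NEFL, NEFM and NEFH, the neuronal filament protein INA, the filament proteins NES and VIM, the keratins KRT8 and KRT18, and the lamins LMNA and LMNB1. They were matched by symbol to the gene identifiers of the count tables, which list 60719 genes, and all 10 were found. The RNA came from precipitates of V5-tagged KIF5A made from SKNAS cells, an established human neuroblastoma line. V5 is a short peptide tag, captured here on antibody-coated magnetic beads. The cells carried either a V5-WT KIF5A construct or a V5-d27 KIF5A construct, introduced by lipid transfection the day before the experiment, and each construct had 2 precipitates, numbered 1 and 2 (called WT and d27 replicates below). d27 is the mutant name in the labels, and the series title places it among KIF5A mutations associated with amyotrophic lateral sclerosis (ALS). The labels mention no removal of the cells' own KIF5A in either group. No input or mock precipitate was used here, so each value is relative between d27 and WT, and enrichment by the bait was not measured. In such bulk RNA, more of an mRNA in the cell and more of it bound to the bait cannot be told apart. The labels do not say whether the replicates came from separate cultures, so p-values reflect the spread among these 4 libraries alone, and that spread may be technical.

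Intermediate filaments are rope-like polymers of coiled-coil dimers, and unlike actin filaments and microtubules they have no polarity. Neurofilaments are built from NEFL with NEFM, NEFH and INA, fill large axons, and move along them as cargo of kinesin-1, of which KIF5A is a neuronal heavy chain. Their accumulation is a known feature of motor neuron disease. NES and VIM mark progenitor and mesenchymal states, KRT8 and KRT18 are obligate partners in simple epithelia, and the lamins line the inner nuclear membrane. All of these proteins share a central alpha-helical rod, and the short stretch at the end of the rod, the helix termination motif, is among the most conserved parts of the family.

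That stretch is shown for 7 of the genes, as 30 bases of coding sequence of the principal GENCODE release 29 transcript (GRCh38), read 5′ to 3′ on the coding strand. It is shown because it is what the proteins share that the choice of genes did not use. Each stretch was found by a search of the reading frame for tyrosine and arginine, any residue, then leucine, leucine and glutamate. The stretches of NEFL, NEFM and LMNA are not shown. Capitals mark the 13 positions that are identical in all 7, and part of this identity was set by the search.
VIM: aCcTACaGgaagCTgcTgGAaGgcGaggAg
KRT8: aCcTACaGgaagCTgcTgGAgGgcGaggAg
INA: gCtTACaGgaaaCTgcTgGAaGgcGaggAg
NEFH: gCtTACaGaaaaCTccTgGAaGgtGaagAg
LMNB1: gCtTACaGgaaaCTctTaGAaGgcGaagAa
KRT18: aCcTACcGccgcCTgcTgGAaGatGgcgAg
NES: aCgTACaGgaccCTccTgGAgGctGagaAc

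Against VIM, the KRT8 stretch was identical at 29 positions, INA at 27, NEFH at 23, LMNB1 at 22, and KRT18 and NES at 21 each. Of the 2 keratins that pair in the cell, KRT8 was thus nearest to VIM and KRT18 among the farthest. In VIM (plus strand, chr10:17235355-17235384) it lies in exon 7 of 10, in KRT8 (minus strand, chr12:52898684-52898713) in exon 7 of 9, in KRT18 (plus strand, chr12:52952305-52952334) in exon 6 of 7, and in LMNB1 (plus strand, chr5:126819108-126819137) in exon 6 of 11. In NEFH, INA and NES the same bases are split by an intron: exons 3 and 4 of NEFH (plus strand, chr22:29485840-29488870), exons 2 and 3 of INA (plus strand, chr10:103287152-103288381) and exons 2 and 3 of NES (minus strand, chr1:156673506-156675223), where each range includes the intron.

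Related sequence raises the question of which genes share whole reads. Windows of 75 bases were compared between each principal transcript and all other annotated transcripts on both strands, the read length not being given in the sources used here. INA, NES, LMNA and LMNB1 shared none with another gene. KRT8 shared 15.7% of its windows with 12 annotated pseudogenes, and KRT18 shared 5.85% with 14. Windows shared with KRT8, its neighbour, brought the KRT18 total to 25.5%. NEFM shared 41.4% and VIM 33.8%, in both cases with antisense genes on the opposite strand. Those antisense genes had few counts beside their partners: 11 to 28 per library for the one opposite NEFM (NEFM itself 180 to 347), and 0 to 33 for VIM-AS1 and 45 to 142 for AL133415.1 (VIM 14419 to 21798). KRT8 and KRT18 are neighbours on chromosome 12 (52897187 to 52949954, minus strand, and 52948871 to 52952901, plus strand), and their annotated ends overlap, so reads there may be left out as ambiguous or, if counting ignored strand, not told apart.

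Depth and cell identity frame the values that follow. Gene counts ranged from 8142869 to 18335151 per library, with the largest total in d27 replicate 1. Reads outside single genes made up 47.6% and 47.3% of entries in WT replicates 1 and 2 but 25.9% and 36.8% in d27, and their part in the differences below was not tested. All 8 mesenchymal neuroblastoma markers had at least 10 counts in every library, as did 5 of 7 adrenergic ones, including HAND2. TH, the catecholamine enzyme, was nearly absent, with 5, 0, 0 and 1 counts (WT replicates, then d27). The epithelial markers EPCAM, ESRP1 and GRHL2 and the glial markers GFAP and S100B had 0 counts in all 4 libraries. Of 4 blood markers HBB, HBA1 and CD3E were at 0, while PTPRC, the leukocyte marker CD45, had 858 to 1852 counts and fell (log2 -0.96 ± 0.24 SE, edgeR adjusted p = 0.0433). The summed level of the blood markers, which is that of PTPRC alone, was 205 and 144 CPM in WT and 101 and 81.8 CPM in d27. It was lower in both d27 libraries, as KRT18 was and as 29.8% of all tested genes were. Its part in the KRT18 result was not tested. KIF5A, the bait, had 735168 and 1598509 counts in WT and 1989252 and 1175335 in d27. Scaled to library size with TMM, as in the test, these were 83401 and 165628 CPM in WT and 107913 and 108931 in d27. Both d27 values lay between the WT values, and KIF5A did not pass (log2 -0.20 ± 0.49 SE, edgeR adjusted p = 0.821). The part of the difference in bait between the WT replicates in the values below was not tested.

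Vimentin dominated the 10 mRNAs, and the neurofilament mRNAs were scarce. Together the 10 genes held 0.394% and 0.325% of each WT library's gene counts and 0.263% and 0.289% of each d27 library's. On a per-length scale, TMM-scaled CPM (counts scaled to library size) per kilobase of the principal transcript, VIM made up 59.3% and 61.7% of the summed level of the 10 genes in WT and 56.6% and 59.0% in d27. The lamins made up 21.4% and 21.5% in WT and 26.7% and 26.7% in d27. The keratins went from 10.9% and 8.20% in WT to 6.36% and 5.38% in d27, and the 4 neuronal filament genes from 1.04% and 1.31% to 2.31% and 1.61%. Nestin stayed between 7.23% and 8.00%. These shares do not depend on the scaling between libraries. The vimentin, lamin, keratin and neuronal shares did not overlap between groups, but each share also moves when another class does. In summed TMM-scaled CPM the lamins were lower in d27 (948 and 949 in WT, 809 and 886 in d27). The neuronal genes overlapped on that scale (56.4 and 71.0 in WT, 82.1 and 64.5 in d27), and vimentin and the keratins were lower in both d27 libraries. Gene by gene, 61.2% of all tested genes did not overlap in CPM.

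In WT, the order of mean levels per kilobase was VIM (857 ± 17 CPM per kb, SD, n = 2), LMNA (234 ± 11), KRT18 (118 ± 24), NES (104 ± 1), LMNB1 (69.7 ± 11.4), KRT8 (17.0 ± 3.7), NEFM (7.01 ± 2.73), NEFL (4.06 ± 0.54), INA (3.65 ± 0.31) and NEFH (1.88 ± 0.67). The WT libraries of KRT18 and NES overlapped on this scale, as did those of NEFL and INA. In d27 the order was VIM (590 ± 51 CPM per kb), LMNA (207 ± 30), NES (77.5 ± 1.1), LMNB1 (65.4 ± 13.9), KRT18 (46.2 ± 1.6), KRT8 (13.4 ± 2.0), INA (7.37 ± 3.64), NEFM (4.65 ± 1.22), NEFH (4.06 ± 1.45) and NEFL (3.78 ± 0.01). KRT18 thus stood above NES and LMNB1 in WT and below both in d27. The d27 libraries of INA and NEFM, of NEFM and NEFH, and of NEFH and NEFL overlapped, so the order of the 4 neuronal genes in d27 is not resolved.

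**Figure D1:**
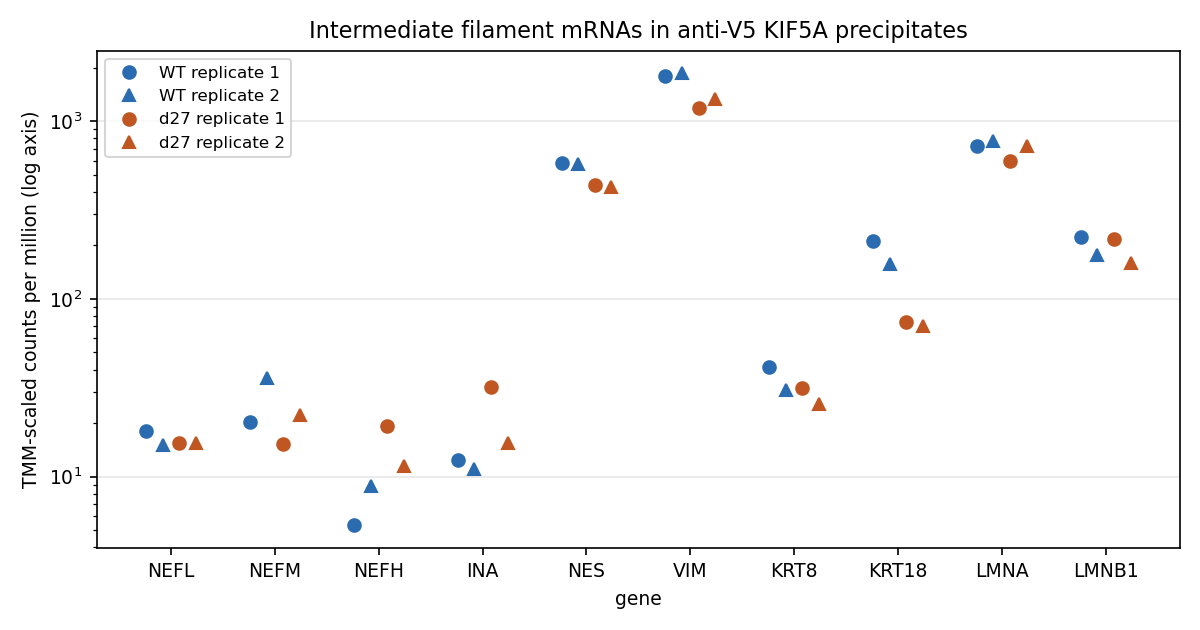
TMM-scaled CPM (log axis) of the 10 genes in each library; circles are replicate 1, triangles replicate 2, blue WT and orange d27. Both d27 points lie below both WT points for KRT18, NES and VIM and above them for NEFH and INA; VIM spans 1182 to 1856 CPM and NEFH 5.33 to 19.3 CPM.

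Of the 10 genes, 1 passed the test between d27 and WT: KRT18 fell, none rose, and 9 did not pass (edgeR's quasi-likelihood test, Benjamini-Hochberg adjusted p below 0.05 over all 14909 genes tested; 3 of the 10 had an unadjusted p below 0.05). The same fit called 11.7% of all tested genes, 8.00% higher and 3.70% lower, so 1 call in 10 is near the background. All 10 genes passed the filter on low counts. Their median log2 fold change was -0.26, with a range from -1.36 to 1.11, beside a median of -0.0004 over all tested genes. In 5 of the 10, both d27 libraries lay on one side of both WT libraries, against 61.2% of all tested genes. Of these 5, 2 were higher and 3 lower, where 31.4% and 29.8% of all tested genes were.

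KRT18, the type I keratin of simple epithelia (ENSG00000111057.11), had 212 and 158 CPM in WT and 74.0 and 70.4 CPM in d27, from 1867, 1526, 1364 and 760 counts. The WT libraries differed from each other more than the d27 libraries did, and both d27 values were below the lower WT value. The means were 185 ± 38 and 72.2 ± 2.5 CPM (SD, n = 2 each), a log2 fold change of -1.36 ± 0.25 (SE; edgeR adjusted p = 0.0188). When each library was left out and the gene filter reapplied, the call held in all 4 fits, with log2 values from -1.53 to -1.09. When instead the tested genes were kept to those of the full fit, it was lost without d27 replicate 1 (edgeR adjusted p = 0.107) and without d27 replicate 2 (adjusted p = 0.0784), at log2 values of -1.39 and -1.32.

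KRT8, the type II keratin that pairs with KRT18 (ENSG00000170421.12), had 41.6 and 30.6 CPM in WT and 31.4 and 25.5 in d27, so the groups overlapped. The log2 difference of -0.34 ± 0.29 (SE) did not pass (edgeR adjusted p = 0.461). Within each library, where scaling cancels, KRT18 had 5.09 and 5.17 counts per KRT8 count in WT and 2.36 and 2.76 in d27. The gap between groups in this ratio was larger than the gap between replicates, but an exact permutation test on 2 against 2 libraries cannot give a p below 0.333. This and the other ratios were chosen after the values were seen.

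The pseudogenes bear on that ratio. Of 51 annotated pseudogenes named after KRT8, 20 had a count, summing to 225 and 748 counts in WT and 369 and 273 in d27. In WT replicate 2 they exceeded KRT8 itself, which had 295 counts. Of 68 named after KRT18, 29 had a count, summing to 91, 198, 77 and 125. With pseudogene counts added to their parents, the KRT18 to KRT8 ratio became 3.31 and 1.65 in WT and 1.52 and 1.61 in d27, so WT replicate 2 then lay close to d27. KRT18 still fell in that fit (log2 -1.32 ± 0.24, edgeR adjusted p = 0.0184), and KRT8 became lower without passing (log2 -0.78 ± 0.29, adjusted p = 0.114). The fall in KRT18 therefore held with either count. The ratio to KRT8 stayed lower in both d27 libraries than in either WT library, but its log2 difference between groups went from -1.01 to -0.58, and the gap between the groups became narrower than that between the WT replicates.

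**Figure D2:**
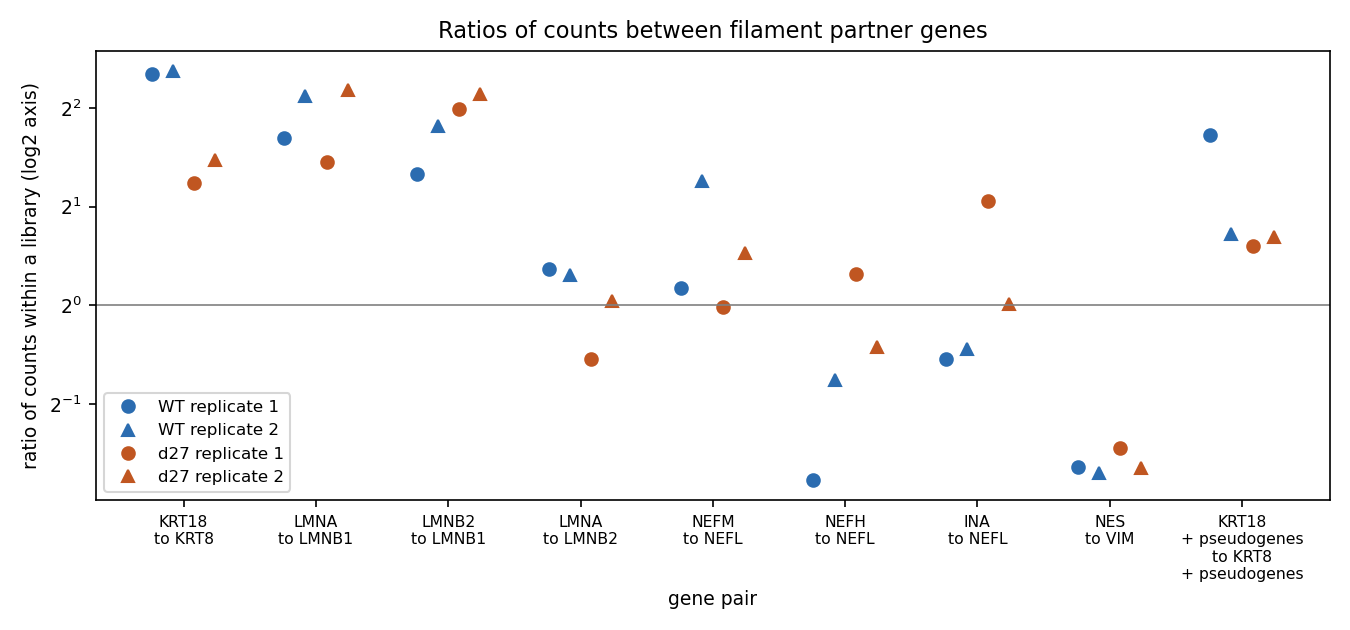
Ratio of counts between partner genes within each library (log2 axis; the gray line marks equal counts); circles are replicate 1, triangles replicate 2, blue WT and orange d27. KRT18 to KRT8 is near 5.1 in both WT libraries and below 2.8 in both d27 libraries, and with pseudogenes added WT replicate 2, at 1.65, moves next to d27.

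None of the neurofilament subunits NEFL, NEFM and NEFH passed the test. NEFL, the light chain that every neurofilament needs (ENSG00000277586.4, chromosome 8, 24950955 to 24957110, minus strand), had 18.2 and 15.02 CPM in WT and 15.5 and 15.4 in d27. The d27 values lay between the WT values, with a log2 fold change of -0.10 ± 0.30 (SE) that did not pass (edgeR adjusted p = 0.846). NEFM, the medium chain (ENSG00000104722.14, chromosome 8, 24913012 to 24919098, plus strand), had 20.4 and 36.0 CPM in WT and 15.2 and 22.2 in d27. Its groups overlapped because d27 replicate 2 exceeded WT replicate 1, and its log2 fold change of -0.60 ± 0.36 did not pass (edgeR adjusted p = 0.304). Without WT replicate 1 NEFM passed as lower when the gene filter was reapplied (log2 -0.91, adjusted p = 0.0429) but not with the tested genes kept (edgeR adjusted p = 0.0552), and without WT replicate 2 its log2 value was -0.11 (adjusted p = 0.879).

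NEFH, the heavy chain with the long phosphorylated tail (ENSG00000100285.10, chromosome 22, 29480230 to 29491390, plus strand), had 47 and 86 counts in WT and 355 and 124 in d27. These gave 5.33 and 8.91 CPM in WT and 19.3 and 11.5 in d27. Both d27 libraries were above both WT libraries, and d27 replicate 1 was the highest. As shares of all gene counts, the exact binomial 95% intervals, which cover counting error only, were 4.24 to 7.68 and 6.36 to 9.82 CPM in WT and 17.4 to 21.5 and 9.84 to 14.1 in d27. The log2 fold change was 1.11 ± 0.42 (SE), and it did not pass (edgeR adjusted p = 0.123). Without WT replicate 2 it passed when the filter was reapplied (log2 1.56, edgeR adjusted p = 0.0450) but not with the tested genes kept (adjusted p = 0.0517), and it became 0.71 without d27 replicate 1 (adjusted p = 0.705).

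INA, alpha-internexin, the neuronal filament protein that co-assembles with the triplet (ENSG00000148798.11, chromosome 10, 103277163 to 103290351, plus strand), had 110 and 107 counts in WT and 592 and 167 in d27. In CPM these were 12.5 and 11.1 in WT and 32.1 and 15.5 in d27. The WT libraries were close to each other, whereas d27 replicate 1 was 2.08 times d27 replicate 2. A log2 fold change of 1.02 ± 0.39 (SE) did not pass (edgeR adjusted p = 0.127). INA passed without d27 replicate 2 when the filter was reapplied (log2 1.48, edgeR adjusted p = 0.0318), though not with the tested genes kept (adjusted p = 0.0938), and with no low-count filter (1.10, adjusted p = 0.0365), and had a log2 value of 0.41 without d27 replicate 1, the deepest library (adjusted p = 0.828).

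Relative to NEFL in the same library, NEFH had 0.294 and 0.593 counts per NEFL count in WT and 1.25 and 0.747 in d27, and INA had 0.688 and 0.738 in WT and 2.08 and 1.01 in d27. Both ratios were higher in both d27 libraries than in either WT library. The NEFM to NEFL ratio, 1.13 and 2.39 in WT and 0.986 and 1.44 in d27, overlapped. NEFH and INA were also nearest to each other among the 10 genes in their profile over the 4 libraries (root mean square distance 0.35 on the centred log2 CPM scale), and KRT18 was farthest from both (1.31 and 1.19).

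VIM, the type III filament of mesenchymal cells (ENSG00000026025.16, chromosome 10, 17228259 to 17237593, plus strand), had 1804 and 1856 CPM in WT and 1182 and 1336 in d27. The groups did not overlap, and both groups had a narrow spread on this scale. The log2 fold change was -0.54 ± 0.27 (SE), which did not pass (edgeR adjusted p = 0.226). As shares of all gene counts, VIM had 1953 and 1656 CPM in WT and 1189 and 1375 in d27. The WT replicates thus lay further apart without TMM, and the groups still did not overlap. NES, nestin, a large filament protein that needs VIM to polymerise (ENSG00000132688.11, chromosome 1, 156668763 to 156677397, minus strand), had 581 and 570 CPM in WT and 435 and 426 in d27. It too was lower in both d27 libraries without passing (log2 -0.42 ± 0.24, edgeR adjusted p = 0.279). NES and VIM were each other's nearest profile (distance 0.10, the smallest among the 10 genes). The NES to VIM ratio, 0.322 and 0.307 in WT and 0.368 and 0.319 in d27, overlapped.

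Neither lamin passed the test. LMNA, which encodes lamins A and C (ENSG00000160789.22, chromosome 1, 156082573 to 156140089, plus strand), had 724 and 772 CPM in WT and 593 and 727 in d27. With d27 replicate 2 inside the WT range, the log2 difference was -0.18 ± 0.26 (SE), at an edgeR adjusted p of 0.681. LMNB1, the B-type lamin of dividing cells (ENSG00000113368.12, chromosome 5, 126776623 to 126837020, plus strand), had 224 and 177 CPM in WT and 217 and 160 in d27. Its replicates differed more than its groups, with a log2 fold change of -0.09 ± 0.26 (edgeR adjusted p = 0.849) that changed sign when WT replicate 1 was left out (0.13) or d27 replicate 2 (0.14). Missing the threshold does not show that levels were equal. VIM, at -0.54, missed it with groups that did not overlap, as those of 61.2% of all tested genes did not.

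**Figure D3:**
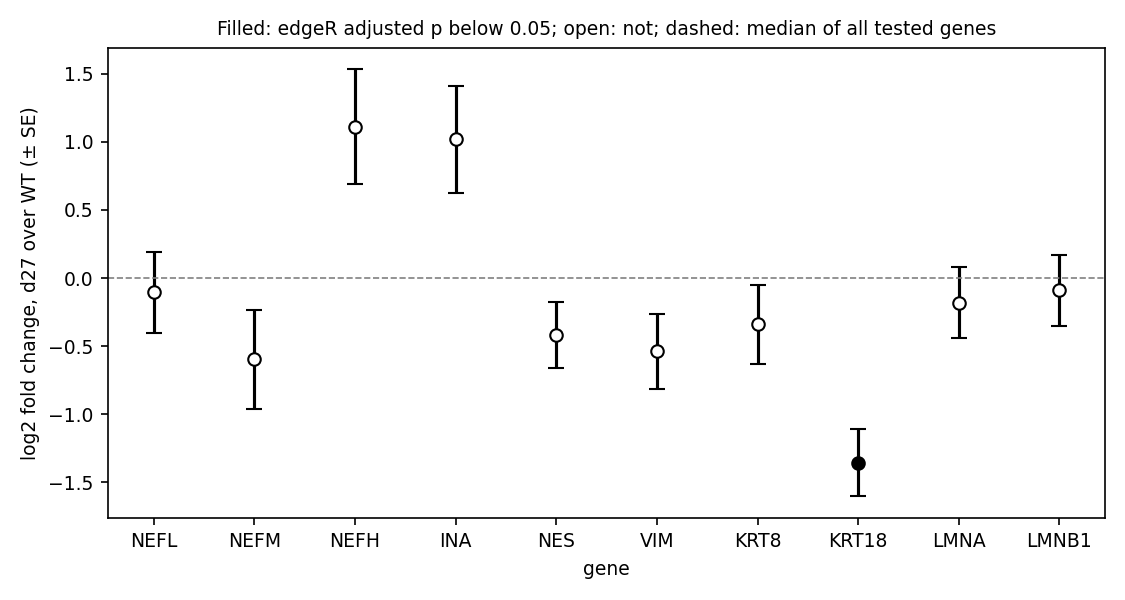
log2 fold change of d27 over WT for the 10 genes, with bars of 1 SE; filled points passed the edgeR test, open points did not, and the dashed line is the median of all tested genes. KRT18, at -1.36, is the single filled point, and NEFH and INA are the 2 genes above the line.

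**Figure D4:**
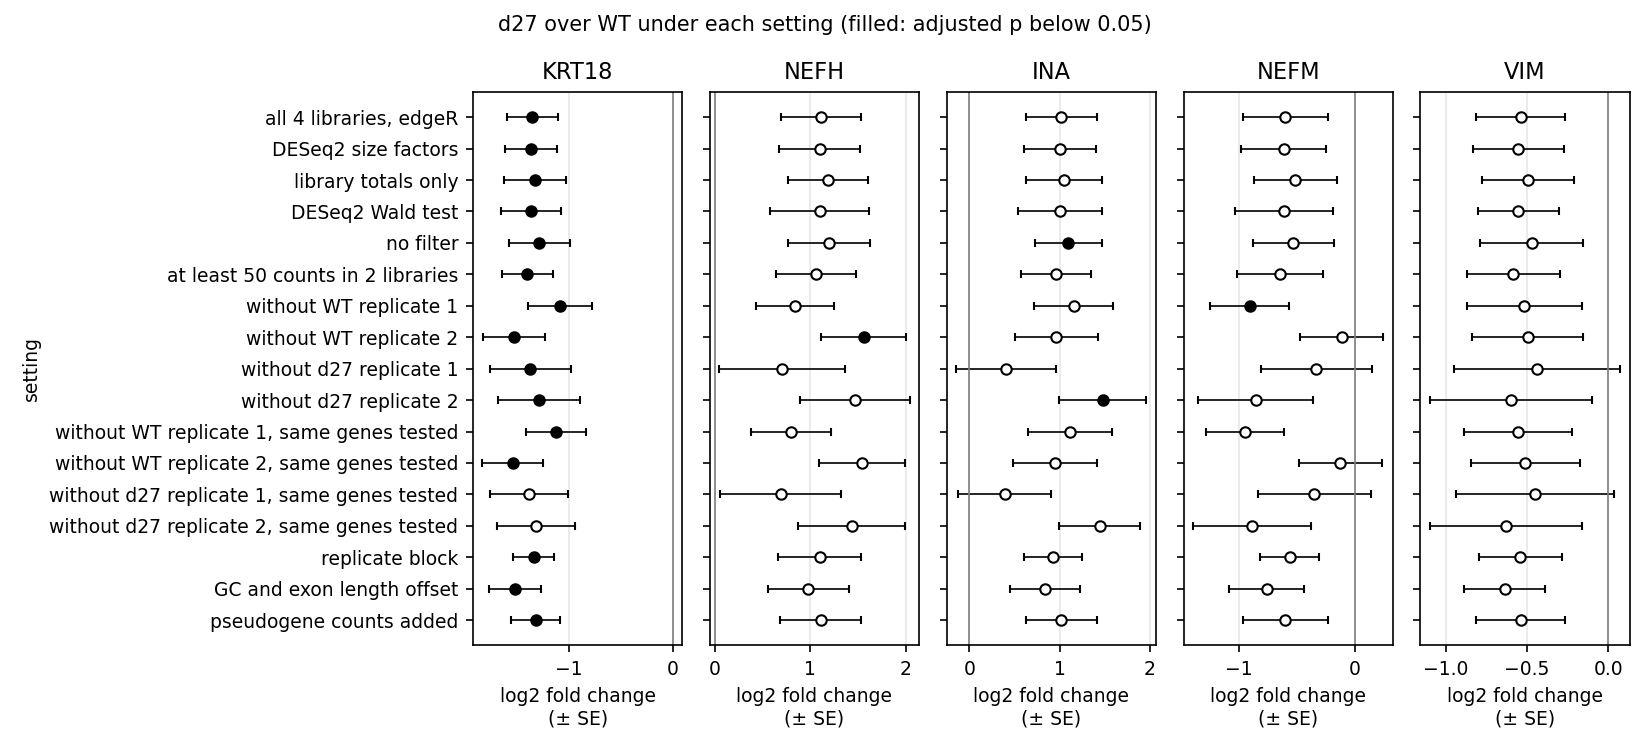
log2 fold change (± SE) of KRT18, NEFH, INA, NEFM and VIM under each setting, filled where the adjusted p was below 0.05; each panel has its own horizontal scale. KRT18 stays between -1.54 and -1.09 and is open in 2 of 17 settings, while NEFH and INA stay above 0 and are filled in 1 and 2.

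Few of the other filament genes had enough counts to be tested. The type III and IV filament genes outside the 10 numbered 4, of which 2 were tested and neither passed: SYNM, synemin, which bridges filaments to anchoring sites, had 139 ± 33 CPM in WT and 74.8 ± 16.9 in d27 (log2 -0.90 ± 0.28 SE, edgeR adjusted p = 0.0760). PRPH, peripherin, the type III protein of peripheral neurons, had 46.6 ± 13.2 and 33.1 ± 13.5 CPM (log2 -0.50 ± 0.36, adjusted p = 0.383). SYNM passed with DESeq2 (log2 -0.91, adjusted p = 0.0223) and with at least 50 counts in 2 libraries (-0.95, edgeR adjusted p = 0.0420). With the filter reapplied, its log2 value was -1.07 without WT replicate 1 and -0.61 without WT replicate 2. It was -1.13 without d27 replicate 1 and -0.65 without d27 replicate 2. GFAP was at 0, and DES had 5 to 14 counts. Of 20 other keratins 3 were tested, namely KRT10, KRT16 and KRT80 (named after their values were seen), and none passed. Without scaling for length, PRPH had 1.52 to 3.72 counts per NEFL count.

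Among lamin B2 and the nuclear envelope partners of lamins, 2 of 17 tested genes rose, 3 fell and 12 did not pass, with a median log2 fold change of 0.17 (over all tested genes, 8.00% rose, 3.70% fell and the median was -0.0004). PRR14, which tethers heterochromatin to the lamina, rose from 38.3 ± 5.4 to 204 ± 15 CPM (SD, n = 2 each; log2 2.41 ± 0.25 SE, edgeR adjusted p = 0.00631), and that call held under every setting tried. Nesprins, which link the nucleus to the cytoskeleton, fell: the giant SYNE2 from 158 ± 60 to 49.4 ± 14.9 CPM (log2 -1.68 ± 0.34, edgeR adjusted p = 0.0248) and the smaller SYNE3 from 88.2 ± 13.2 to 40.9 ± 3.9 (-1.11 ± 0.25, adjusted p = 0.0323). SYNE1 (-1.42), which fell, and NARF (0.98), a prelamin A binding protein, which rose, were named after their values were seen. With an offset for GC content and exon length, none of the 3 nesprins passed (SYNE1 -0.42, SYNE2 -0.93 and SYNE3 -0.48). With the filter reapplied, the SYNE1 call was also lost without WT replicate 2, that of SYNE3 without any of WT replicate 2, d27 replicate 1 and d27 replicate 2, and that of NARF without any of those libraries or with library totals only. With the tested genes kept, the SYNE1 call was lost without either d27 library as well (edgeR adjusted p = 0.180 and 0.0983) and that of SYNE2 without d27 replicate 1 (adjusted p = 0.143).

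LMNB2, the other B-type lamin, had 593 ± 45 CPM in WT and 783 ± 111 in d27, and did not pass (log2 0.40 ± 0.26 SE, edgeR adjusted p = 0.341). Within libraries LMNB2 had 2.51 and 3.52 counts per LMNB1 count in WT and 3.98 and 4.40 in d27. LMNA had 1.29 and 1.23 counts per LMNB2 count in WT and 0.688 and 1.03 in d27, lower in both d27 libraries.

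Of 6 genes of protein prenylation and lamin processing, 2 rose and 4 did not pass, with a median log2 fold change of 0.98, where 8.00% of all tested genes rose. RCE1, the protease that trims the prenylated tail, rose from 3.99 ± 2.86 to 18.2 ± 6.0 CPM (SD, n = 2 each; log2 2.19 ± 0.55 SE, edgeR adjusted p = 0.0422). PGGT1B, a prenyltransferase subunit, rose from 19.7 ± 0.9 to 39.7 ± 3.4 CPM (log2 1.01 ± 0.27, adjusted p = 0.0483). Both calls were lost with library totals in place of TMM and without d27 replicate 2, and that of PGGT1B also without WT replicate 2 or d27 replicate 1. Without d27 replicate 1 the RCE1 call held with the filter reapplied but not with the tested genes kept (edgeR adjusted p = 0.107). ICMT, the methyltransferase of the prenylated tail, had 29.4 ± 12.0 CPM in WT and 66.1 ± 2.1 in d27 (edgeR adjusted p = 0.0556). ZMPSTE24, the prelamin A protease, had 70.4 ± 20.4 and 136 ± 36 CPM (edgeR adjusted p = 0.0793). The prenyltransferase genes FNTA (log2 0.64, edgeR adjusted p = 0.142) and FNTB (log2 -0.88, edgeR adjusted p = 0.419) did not pass either, and FNTB went the other way.

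Of 10 tested plakin linkers and desmosomal anchors, 3 fell and 7 did not pass. All 10 had a log2 fold change below 0, between -1.67 and -0.34, with a median of -0.91. Some of these values rest on few counts per library: 21 to 35 for EPPK1, 14 to 24 for EVPL, 12 to 40 for PKP2 and 37 to 102 for PPL. Their SEs were 0.73, 0.83, 0.80 and 0.54, in that order. Of all tested genes 3.70% fell, and their median log2 fold change was -0.0004. The 3 that fell are giant plakin linkers of the cytoskeleton: PLEC, plectin (log2 -1.67 ± 0.36 SE, edgeR adjusted p = 0.0280), DST, dystonin (-1.50 ± 0.32, adjusted p = 0.0293), and MACF1 (-1.17 ± 0.30, adjusted p = 0.0441). Every one of these calls was lost without d27 replicate 1. Those of DST and MACF1 were also lost without WT replicate 2, those of PLEC and MACF1 without d27 replicate 2 (with the tested genes kept, DST as well, edgeR adjusted p = 0.0972), and those of DST (-0.66) and MACF1 (-0.25) with the offset for GC content and exon length.

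Among 20 regulators of neurofilaments and vimentin, 1 rose, 1 fell and 18 did not pass, with a median log2 fold change of 0.02, so both shares are near the 8.00% and 3.70% of all tested genes. YWHAG, a 14-3-3 protein, a family that binds phosphorylated filament proteins, rose from 423 ± 22 to 1225 ± 171 CPM (SD, n = 2 each; log2 1.53 ± 0.27 SE, edgeR adjusted p = 0.0178), a call lost without d27 replicate 1 when the tested genes were kept fixed (adjusted p = 0.121). ARHGEF28, an exchange factor known to bind NEFL mRNA, fell from 12.7 ± 0.5 to 4.85 ± 0.34 CPM (log2 -1.39 ± 0.37, adjusted p = 0.0498). That call sat at the threshold and was lost without any of WT replicate 2, d27 replicate 1 and d27 replicate 2, with library totals only, with no filter, and with the GC and length offset. TARDBP, which encodes the ALS protein TDP-43, also a NEFL mRNA binder, had 51.3 ± 8.3 CPM in WT and 56.9 ± 7.0 in d27 (adjusted p = 0.736 by edgeR).

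**Figure D5:**
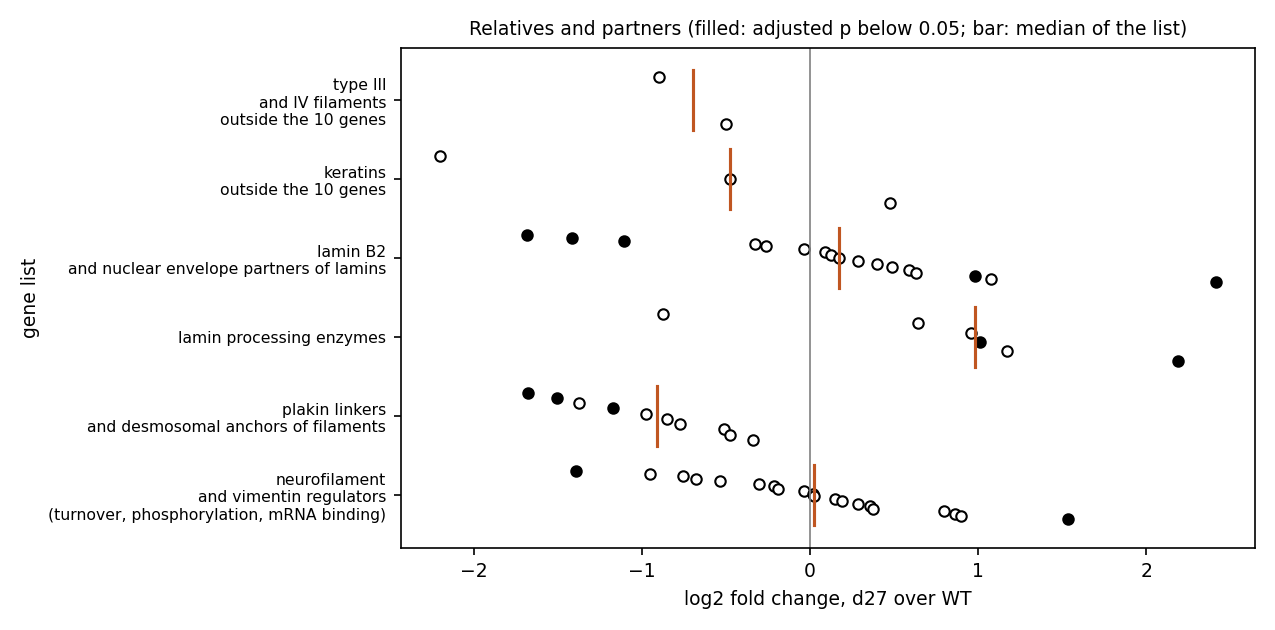
log2 fold change of d27 over WT for each tested gene of 6 lists of relatives and partners, filled where the edgeR adjusted p was below 0.05; orange bars are list medians. The plakin and desmosomal list lies wholly below 0. In the list of protein prenylation and lamin processing genes, 5 of 6 lie above 0 and FNTB lies below.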

How the data were processed

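The authors deposited 1 table of raw read counts for each of 4 libraries. HTSeq and DESeq2 on build GRCh38 are the tools named in the submitters' processing notes; per the labels' protocols, RNA was ribosomal-RNA depleted and made into strand-marking libraries. Aligner, annotation release, strand setting and read length: not given in the sources used here. HTSeq summary entries (25.9% to 47.6% of all) entered neither library sizes nor tests.

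Genes were tested with edgeR 4.0.16 (R 4.3.3): TMM, filterByExpr (minimum count 10, minimum total 15), glmQLFit (robust) and glmQLFTest on group alone, adjusted over 14909 genes. Each SE was taken as the size of the log2 fold change over the root of F. The test was tested on simulated data. Of the listed genes, 58488 matched GENCODE release 29 and 60463 had a symbol. Replicates differed by more than counting noise (chi-square per degree of freedom 33.5 in WT and 19.9 in d27). A count of 0 allows up to 3 counts, 0.164 to 0.368 CPM.

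The 10 genes and all lists were chosen with earlier results of these data known. The rule for other named genes took KIF5A and up to 3 called genes per list by lowest p. Further genes of the lists, among them LMNB2, SYNM, PRPH, ICMT, ZMPSTE24, FNTA, FNTB and TARDBP, were named outside that rule with their values known. Alternatives were DESeq2 1.42.0, other scalings and filters, leaving out each library, a replicate block, a GC and length offset, and added pseudogene counts.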

Additional observations from a re-analysis of the deposited data

How the results depend on the processing

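Of the 10 filament genes, KRT18, NEFH and INA were among those that kept their direction under all 16 alternatives. The number of the 10 called lower, 1, ranged from 0 to 2 over the fits that left out a library, and the number called higher, 0, from 0 to 1, and it became 1 with no filter (INA). With a library left out and the filter reapplied, NEFL ranged from -0.21 without WT replicate 2 to 0.082 without WT replicate 1 on the log2 scale, and LMNB1 from -0.31 without d27 replicate 1 to 0.14 without d27 replicate 2. NEFL was lowest, at -0.26, with the GC and length offset. With the tested genes kept as in the full fit, NEFL was 0.041 and LMNB1 0.091 without WT replicate 1, NEFL was -0.23 without WT replicate 2, and LMNB1 was -0.33 without d27 replicate 1 and 0.11 without d27 replicate 2. That setting was chosen after seeing the data, and the cause of its effect was not tested.

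Over all genes, the 1192 higher calls became 1888 with no filter, and the 551 lower calls became 285 with library totals only, 1231 with DESeq2, 974 with no filter and 959 with at least 50 counts in 2 libraries. Leaving out a library gave from 697 (without d27 replicate 1) to 2715 (without WT replicate 1) higher calls and from 71 to 2136 lower calls, without the same libraries. With the same genes tested these became 2350 higher and 1758 lower without WT replicate 1, 303 lower without WT replicate 2, 225 and 4 without d27 replicate 1, and 459 and 86 without d27 replicate 2. The higher share of calls, 68.4%, was 57.7% with DESeq2 and 75.7% with library totals only, and with a library left out it ranged from 56.0% (without WT replicate 1) to 98.2% (without d27 replicate 1, same genes tested). With no filter the median log2 fold change of all genes was 0.31. The replicate block gave 2137 higher and 1438 lower calls and changed no call among the 10 genes, while SYNM passed with it (edgeR adjusted p = 0.0325). Same-numbered libraries deviated with a correlation of 0.0962, and the labels do not say that a number marks a shared batch.

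Among the lists of relatives, the median log2 value of other keratins ranged from -0.84 without WT replicate 2 to 0.075 without WT replicate 1 (-0.85 and 0.035 with the same genes tested). That of the regulators reversed to -0.028 with at least 50 counts, -0.0004 without d27 replicate 1 with the same genes tested, -0.0029 with the replicate block and -0.020 with the GC and length offset. NEFH, with 47 to 355 counts per library, had the fewest counts of the 10 genes summed over libraries.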
